A study of Homo sapiens with 10 samples.

Results

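The PAX genes encode transcription factors of embryonic patterning that bind DNA through a paired domain. PAX5, the gene named in the title of the series, is set aside here, and the other members, PAX1, PAX2, PAX3, PAX4, PAX6, PAX7, PAX8 and PAX9, are described. They were taken by name, as 8 of 20033 protein-coding genes, together with every peak over each gene body and 50 kb to each side. The paralogues fall into the pairs PAX1 and PAX9, PAX2 and PAX8 (with PAX5), PAX3 and PAX7, and PAX4 and PAX6, and PAX3, PAX4, PAX6 and PAX7 also carry a complete homeodomain. They act in the vertebral column and pharyngeal pouches, in the kidney and thyroid, in neural crest and muscle and in the eye and pancreatic islet. Acetylation of histone H3 at lysine 27 (H3K27ac) and at lysine 18 (H3K18ac) is placed by the coactivators p300 and CBP and marks active promoters and enhancers.

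Both marks were measured by ChIP-seq in C4-2B, a castration-resistant human prostate adenocarcinoma cell line, and in C4-2BER, its enzalutamide-resistant derivative, which the labels call neuroendocrine like. C4-2BER was selected in enzalutamide, an antiandrogen, and by the paper's methods was cultured with the drug continuously present. Exposure to the drug and cell line therefore cannot be told apart. Both are established cell lines. Each mark had 2 ChIP libraries in each cell line, beside 1 input, and the authors merged the replicates before calling peaks. The data are therefore 4 pooled peak lists, in which each region has 1 fold enrichment (ChIP signal over local background) per mark and cell line, with no replicate error and no test. The lists held 72971 H3K27ac peaks for C4-2BER, 68034 for C4-2B, and 197948 and 198451 H3K18ac peaks respectively. Library depth is unknown, so a missing peak means only that none was called. In a bulk culture, fewer cells with a mark and less of the mark per cell cannot be told apart. The prostate luminal markers KLK3, KLK2, TMPRSS2, HOXB13 and FOLH1 each had a promoter peak of both marks in both cell lines. Of 8 neuroendocrine markers, 3 had an H3K27ac promoter peak in C4-2BER and 2 had one in C4-2B, while CHGA, CHGB, NCAM1, INSM1 and SCG3 had none in either cell line.

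The DNA of the promoters and regions on which the results turn is printed first. Those of the promoters are from RefSeq (GRCh38.p14), which held 18 promoters of 7 of the 8 genes but not PAX1, and those of the distal regions are from GRCh38. PAX2 and PAX7 are shown because H3K27ac peaks were called at their promoters in C4-2BER alone, PAX4 because its promoter had none and is poor in CpG, and the most upstream PAX6 promoter because it holds a paired domain core. Each promoter is the 250 bases before its transcription start site (TSS), written 5′ to 3′ on the strand of the gene. Capitals mark CpG dinucleotides, except in PAX6, where they mark the core GTCACGC.
PAX2 (chr10:100745332-100745581, plus strand): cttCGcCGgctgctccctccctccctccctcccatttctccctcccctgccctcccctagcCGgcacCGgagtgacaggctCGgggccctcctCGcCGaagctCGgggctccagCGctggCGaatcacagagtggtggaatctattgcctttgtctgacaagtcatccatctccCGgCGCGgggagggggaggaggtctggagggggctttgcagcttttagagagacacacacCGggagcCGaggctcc
PAX7 (chr1:18630596-18630845, plus strand): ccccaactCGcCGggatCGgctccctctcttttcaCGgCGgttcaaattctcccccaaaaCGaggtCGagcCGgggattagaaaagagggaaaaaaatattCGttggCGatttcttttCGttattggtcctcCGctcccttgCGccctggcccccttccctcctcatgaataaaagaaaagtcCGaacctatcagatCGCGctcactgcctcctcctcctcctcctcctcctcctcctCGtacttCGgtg
PAX4 (chr7:127618143-127618392, minus strand): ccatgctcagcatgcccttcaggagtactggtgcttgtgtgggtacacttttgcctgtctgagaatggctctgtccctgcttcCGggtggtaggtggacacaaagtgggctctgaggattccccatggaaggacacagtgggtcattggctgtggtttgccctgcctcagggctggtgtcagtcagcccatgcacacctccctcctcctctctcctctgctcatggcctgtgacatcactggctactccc
PAX6 (chr11:31817962-31818211, minus strand): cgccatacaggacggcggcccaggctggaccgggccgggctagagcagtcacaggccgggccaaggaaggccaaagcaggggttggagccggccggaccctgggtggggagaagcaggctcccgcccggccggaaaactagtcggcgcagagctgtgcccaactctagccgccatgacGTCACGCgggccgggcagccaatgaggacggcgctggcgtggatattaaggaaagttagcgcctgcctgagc
The PAX7 stretch held 18 CpG and that of PAX2 15, against 1 in PAX4, which was more than in 6.06% of all promoters. The core GTCACGC was found on either strand in 1 of the 18 PAX promoters, 72 bases before that PAX6 start, and in 2.2% of 35116 promoters. The homeodomain core TAATTA, present in 4.35% of promoters, TGATTGAT, a site of PBX with HOX (0.416%), and the TATA box TATAAA (10.7%) were found in none of the 18. No H3K27ac peak lay over the printed PAX6, PAX7 or PAX4 stretch, while the PAX2 stretch lay under the C4-2BER peak.

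Outside the promoters, 2 regions are shown because both marks were higher in C4-2BER there. The first is the whole of a region beyond the 3′ end of PAX2, and the second is the middle 200 bases of a region downstream of PAX9, inside the gene body of SLC25A21. Both are on the plus strand, with CpG in capitals.
PAX2 downstream region (chr10:100831617-100831884): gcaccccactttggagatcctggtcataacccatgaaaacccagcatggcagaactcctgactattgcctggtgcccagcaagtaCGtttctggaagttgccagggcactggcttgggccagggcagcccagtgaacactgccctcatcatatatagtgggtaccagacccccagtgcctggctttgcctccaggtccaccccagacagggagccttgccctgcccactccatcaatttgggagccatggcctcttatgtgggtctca
PAX9 downstream region (chr14:36683200-36683399): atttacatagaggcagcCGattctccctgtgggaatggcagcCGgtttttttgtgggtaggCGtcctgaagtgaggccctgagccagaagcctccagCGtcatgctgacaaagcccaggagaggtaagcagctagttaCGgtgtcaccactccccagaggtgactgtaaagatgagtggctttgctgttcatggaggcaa
Neither stretch overlapped an annotated exon of a PAX gene, and none of the motifs above was found in either. The PAX2 region held 1 CpG and the PAX9 stretch 5.

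At the PAX promoters the marks had different distributions. H3K18ac was present at the promoters of 8 of the 8 genes in both cell lines, where 85.2% of all protein-coding genes had such a peak in C4-2BER and 87.2% in C4-2B. H3K27ac was present at 6 of the 8 in C4-2BER, namely PAX1, PAX2, PAX6, PAX7, PAX8 and PAX9, and at 3 in C4-2B, namely PAX1, PAX8 and PAX9, against 74.2% and 73.8% of all genes. A promoter here is 2000 bp upstream to 500 bp downstream of any TSS of the gene, and its value is the highest fold enrichment of a peak there. A promoter with a peak in C4-2BER alone, or with a value there at least 2 times that of C4-2B, was called increased, and the reverse was called decreased. By H3K27ac 3 PAX promoters were increased (3.49% of all genes) and 1 was decreased (8.27% of all genes). By H3K18ac none was increased or decreased, against 1.92% and 5.25% of all genes. With the canonical TSS alone, H3K27ac was present at 4 genes in C4-2BER (PAX1, PAX2, PAX7 and PAX9) and at 2 in C4-2B (PAX1 and PAX9). H3K18ac was then present at 7 genes in C4-2BER against 6 in C4-2B, and PAX4, with 2.05 in C4-2BER and no peak in C4-2B, was called increased.

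**Figure D1:**
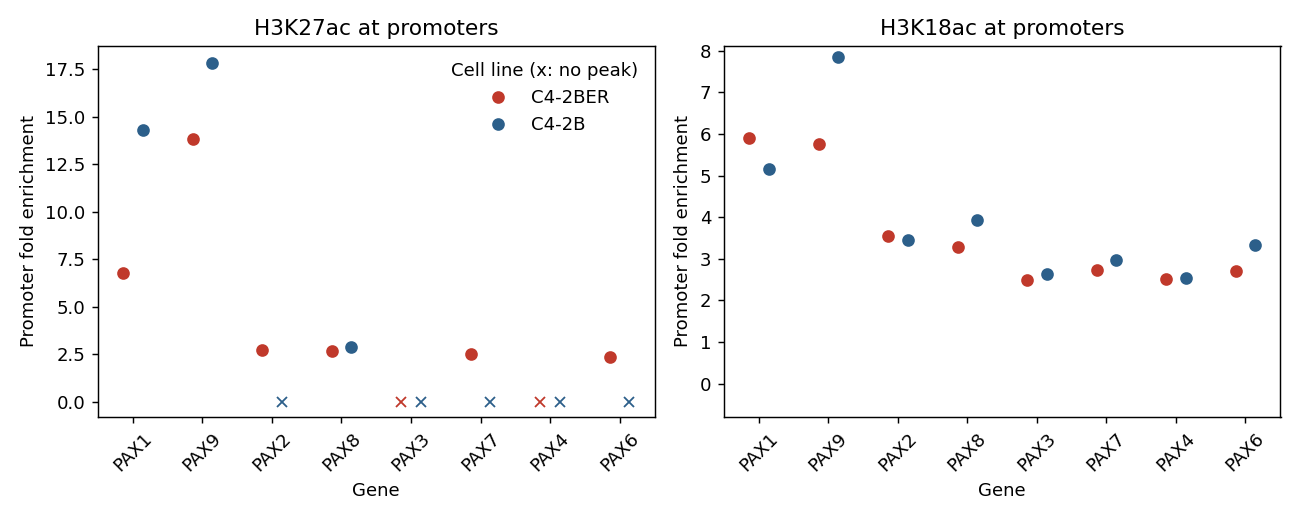
Highest fold enrichment of H3K27ac (left) and H3K18ac (right) in the promoter windows of the 8 genes, with 1 point per pooled peak list and a cross where no peak was called. PAX1 and PAX9 stand above the other genes in both marks, and PAX2, PAX7 and PAX6 have an H3K27ac point for C4-2BER only.

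The 3 promoters with H3K27ac in C4-2BER alone carried weak peaks. PAX2, which directs formation of the ureteric bud and optic nerve, had an H3K27ac fold enrichment of 2.74 over a peak of 1525 bp. PAX7, a factor of muscle satellite cells, had 2.50 over 378 bp, and PAX6, the regulator of eye and islet development, had 2.35 over 378 bp. The PAX6 peak was not at the canonical TSS, so the call ended there, and it also lay at promoters of the noncoding genes PAUPAR and ENSG00000285283. The −log10 q-values of the PAX2, PAX7 and PAX6 peaks were 3.52, 2.23 and 1.97, and only 5.19%, 3.43% and 2.27% of the promoters with a peak had a lower fold enrichment in C4-2BER. None of these 3 peaks remained at a fold enrichment of at least 4 or a −log10 q of at least 5, where the count of genes was 2 in each cell line. H3K18ac at the same promoters was already present in C4-2B, at 3.44 for PAX2, 2.97 for PAX7 and 3.33 for PAX6, and in C4-2BER it was 3.55, 2.73 and 2.70.

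The paralogues PAX1 and PAX9, which pattern the vertebral column, pharyngeal pouches and, for PAX9, the teeth, had the strongest promoters of the family. At PAX9 (chr14:36657568-36679362, plus strand), H3K27ac reached 13.8 in C4-2BER against 17.8 in C4-2B over a region of 3020 bp, a log2 ratio of −0.37, or 0.05 after rescaling over the shared regions. The unscaled ratio was less negative than the median of −0.50 over all promoters with a peak in both cell lines, and the share of promoters with a lower value was 61.0% in C4-2BER against 48.6% in C4-2B. At PAX1 (chr20:21705659-21718481, plus strand), H3K27ac was 6.76 in C4-2BER against 14.3 in C4-2B, a log2 ratio of −1.08, with 17.9% and 34.2% of promoters lower. The PAX1 region was the one region shared by the cell lines with a ratio past 2 in the direction of C4-2B in either mark, and its ratio fell under 2, to a log2 of −0.78, when C4-2BER was rescaled over the shared regions.

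H3K18ac did not follow H3K27ac at the PAX1 promoter. Its highest peak there was 5.90 in C4-2BER against 5.15 in C4-2B, a log2 ratio of 0.20. Averaged over the length of the merged region of 8123 bp, the values were 5.13 and 5.15. At PAX9 the highest H3K18ac peaks were 5.77 and 7.85, a log2 ratio of −0.44, whereas the averages over the merged region of 6308 bp were 5.77 and 5.67, so that direction depends on how the region is summarized. PAX8 (chr2:113215997-113278921, minus strand), a regulator of thyroid and kidney, had H3K27ac of 2.68 in C4-2BER against 2.88 in C4-2B at a downstream TSS. Its canonical TSS had no peak of either mark in either cell line. PAX8 overlaps the antisense gene PAX8-AS1 there, and the peaks cannot be assigned to one of them.

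PAX3 and PAX4 had no H3K27ac peak at a promoter or over the gene body in either cell line. PAX3 (chr2:222199887-222298998, minus strand), which specifies neural crest and muscle precursors, had H3K18ac of 2.48 in C4-2BER against 2.63 in C4-2B at its promoters. PAX4 (chr7:127610292-127618142, minus strand), a factor of islet beta cells, had 2.50 and 2.54. Within 1000 bp of its canonical TSS PAX4 held 7 CpG, with an observed to expected ratio of 0.06. The other 7 genes held 84 to 155 CpG, with ratios of 0.47 to 0.727.

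Across the windows of the 8 genes, peaks that overlapped between the cell lines were joined, which gave 51 H3K27ac and 141 H3K18ac regions. Of the H3K27ac regions, 27 were shared by the cell lines, 16 were C4-2BER only and 8 were C4-2B only. With the rule used for promoters, 17 were increased (33.3%, against 30.5% of all H3K27ac regions) and 9 decreased (17.6%, against 22.7%). Of the H3K18ac regions, 71 were shared, 30 were C4-2BER only and 40 were C4-2B only, so 30 were increased (21.3%, against 26.2% of all H3K18ac regions) and 40 decreased (28.4%, against 23.5%). The shares of both marks lay within a few percentage points of those of all regions. Among shared regions the median log2 ratio was −0.17 in H3K27ac and −0.12 in H3K18ac, which were also the medians over the shared regions of all chromosomes.

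**Figure D2:**
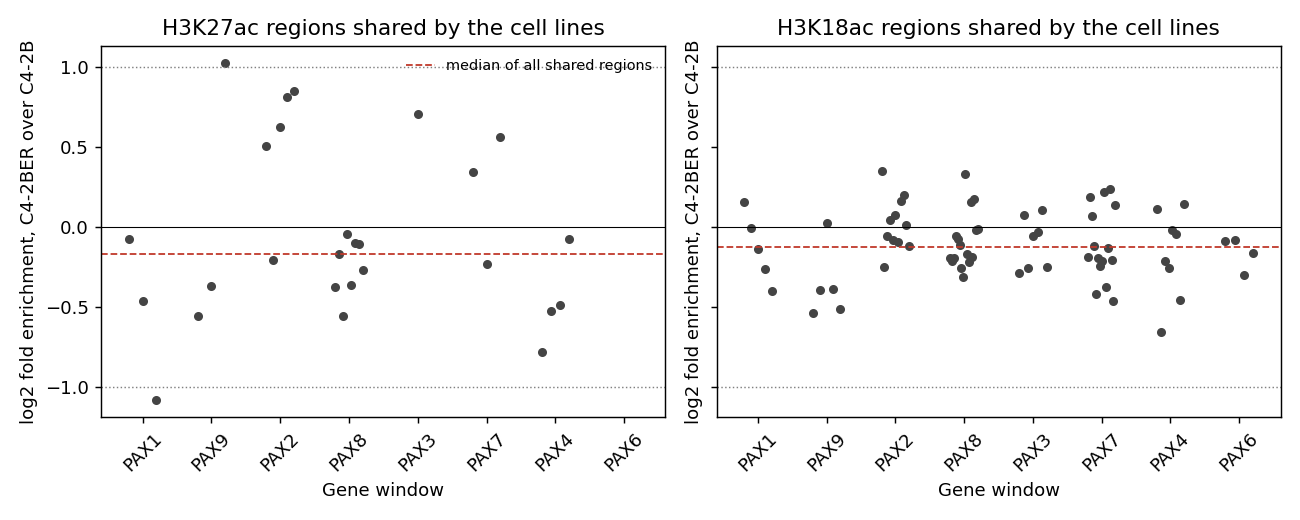
log2 ratio of fold enrichment, C4-2BER over C4-2B, for each region with a peak in both cell lines (points), by gene window, with the median over all shared regions (dashed) and ratios of 2 (dotted). H3K27ac ratios ranged from −1.08 to 1.03 and H3K18ac ratios from −0.66 to 0.35, and PAX6 had no shared H3K27ac region.

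The windows differed from each other in H3K27ac. That of PAX2 (chr10:100735396-100829944, plus strand) had 8 regions. Of these, 3 were in C4-2BER only and so increased (37.5%, against 30.5% of all H3K27ac regions). None was in C4-2B only or otherwise decreased, against 22.7% of all regions. Of its 5 shared regions, 4 were higher in C4-2BER, where 36.2% of all shared regions were. The median log2 ratio of the 5 was 0.63. The strongest, over an exon near the 3′ end of the gene (80887 to 82861 bp from the TSS), had 8.61 in C4-2BER against 4.79 in C4-2B, a log2 ratio of 0.85. An intronic region 44772 to 46467 bp from the TSS had 6.37 and 3.63, a log2 ratio of 0.81. The region at −35779 to −34956 bp had 4.95 and 3.49, and one at 34607 to 36037 bp had 3.58 and 2.32. The remaining shared region, at −17353 to −15683 bp, was lower in C4-2BER, at 3.73 against 4.30. No shared PAX2 region reached a ratio of 2, although the strongest passed it after rescaling, at a log2 of 1.04.

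In the 4 PAX2 regions where H3K27ac was higher in C4-2BER, the log2 ratios of H3K18ac were smaller. H3K18ac ratios also spread less over the PAX windows, from −0.66 to 0.35 against −1.08 to 1.03 for H3K27ac. At the strongest one H3K18ac was 6.50 in C4-2BER against 6.45 in C4-2B, and at the intronic one 5.58 and 4.85. At the upstream one it was 6.85 and 5.37, and at the remaining one 3.03 and 2.71. Among all shared regions of each mark, the upstream ratio ranked above 92.8% in H3K18ac and 88.6% in H3K27ac. The other ranks were lower in H3K18ac, at 68.9% against 95.8% (strongest), 85.9% against 95.3% (intronic) and 83.3% against 91.9% (remaining). Of the 3 H3K27ac regions in C4-2BER only, the downstream one printed above (fold enrichment 2.89) and an intronic one (2.22) lay on H3K18ac regions that were also in C4-2BER only, and the promoter lay on a shared one.

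**Figure D3:**
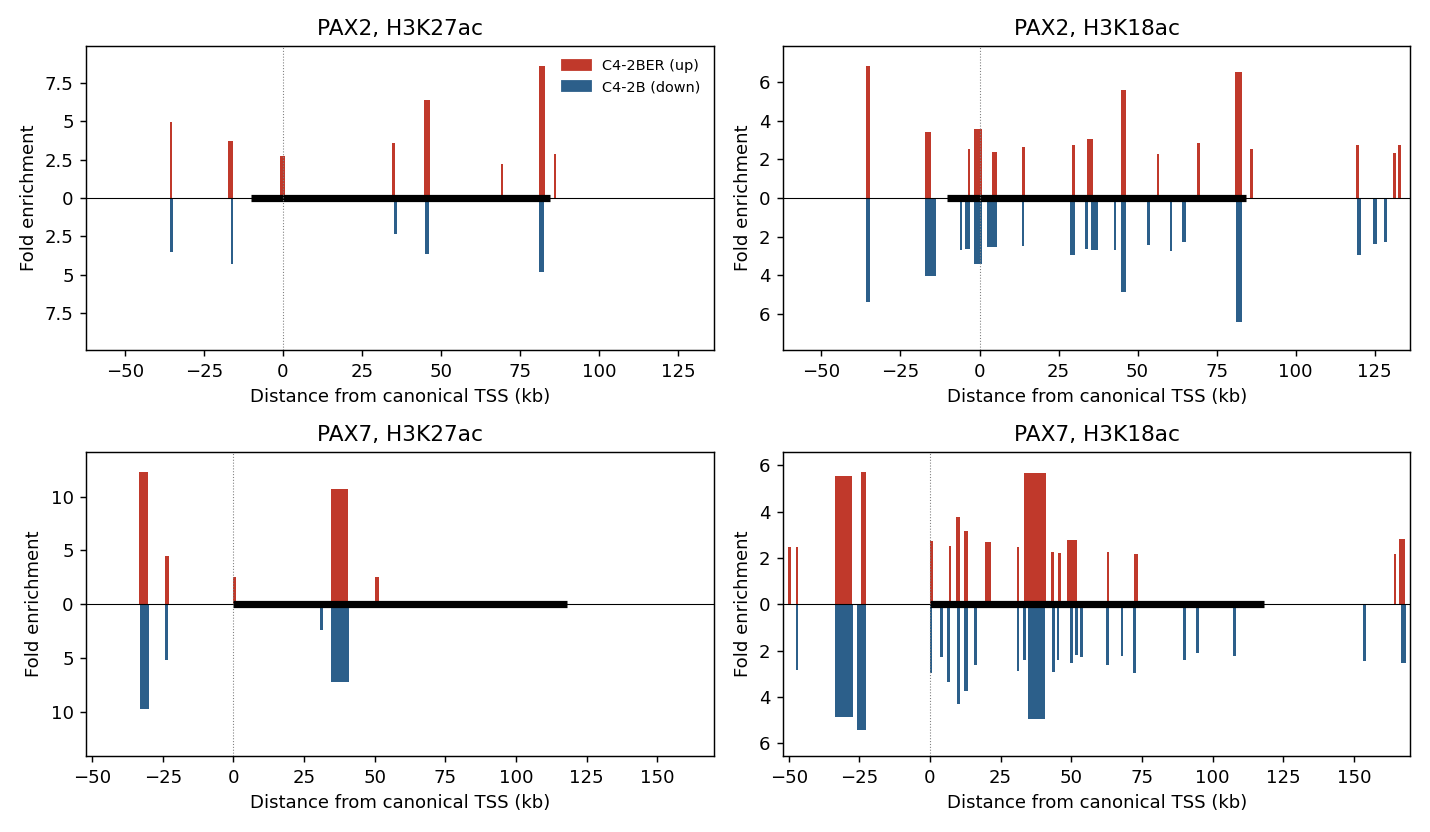
Peaks around PAX2 (top) and PAX7 (bottom) by distance from the canonical TSS in kb, with H3K27ac left and H3K18ac right. Bars give fold enrichment, upward for C4-2BER and downward for C4-2B, narrow peaks are widened to be visible, and the thick line is the gene. The H3K27ac bars of PAX2 within the gene are taller in C4-2BER, and both cell lines share the broad upstream and intronic peaks of PAX7.

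PAX7 (chr1:18630846-18748866, plus strand) had its H3K27ac away from the promoter. An upstream region of 3430 bp, at −33399 to −29970 bp, had 12.3 in C4-2BER against 9.71 in C4-2B. An intronic region of 6181 bp, starting 34587 bp into the gene, had 10.7 and 7.26, a log2 ratio of 0.56. Both values exceeded the PAX7 promoter peak of 2.50 several times over. Another region, at −24154 to −22726 bp, was lower in C4-2BER, at 4.45 against 5.23. Beside the promoter, an intronic region 50027 bp into the gene was in C4-2BER only, at 2.58, and 1 at 31007 bp was in C4-2B only, at 2.39. H3K18ac was at 5.55 and 4.87 over the first region and at 5.65 and 4.85 over the intronic one. Of the 26 H3K18ac regions of PAX7, 3 were called in C4-2BER alone and so increased (11.5%, against 26.2% of all H3K18ac regions). Another 8 were called in C4-2B alone and so decreased (30.8%, against 23.5%).

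PAX9 had the one shared region of either mark with a ratio past 2 in the direction of C4-2BER. This H3K27ac region, 21030 to 21848 bp from the TSS in the gene body of SLC25A21 and printed above in part, had 8.29 in C4-2BER against 4.07 in C4-2B. Its log2 ratio was 1.03, just inside the limit of 2, and was higher than in 97.6% of all shared regions. An H3K18ac peak of 503 bp with a fold enrichment of 4.23 lay over it in C4-2BER, and none was called there in C4-2B. Upstream of PAX9, the region at −14343 to −13694 bp was lower in C4-2BER, at 3.29 against 4.84 for H3K27ac and 3.76 against 5.47 for H3K18ac. Thus 1 H3K27ac region in the window was increased and 2, both in C4-2B only and at 2.29 and 2.48, were decreased.

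**Figure D4:**
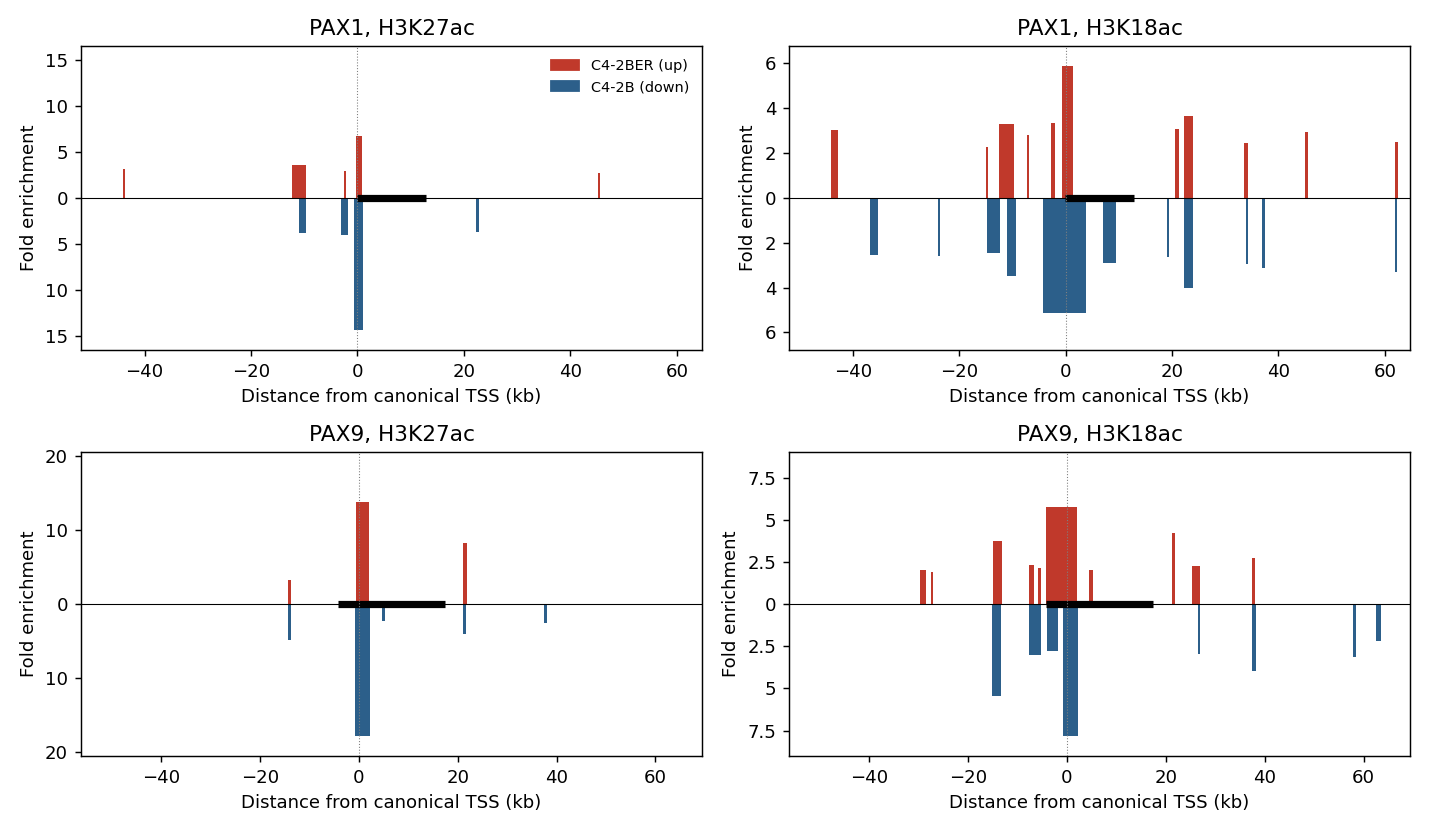
Peaks around PAX1 (top) and PAX9 (bottom), drawn as for PAX2 and PAX7. The H3K27ac peak at the PAX1 TSS is 6.76 in C4-2BER against 14.3 in C4-2B, and the peak downstream of PAX9 is 8.29 and 4.07.

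The remaining H3K27ac of the PAX1 window was weak. Its other shared regions had 3.62 in C4-2BER against 3.81 in C4-2B at −12337 to −9672 bp, and 2.95 and 4.06 at −3010 to −1845 bp. None of its 3 shared H3K27ac regions was higher in C4-2BER. The 2 in C4-2BER only, at −44058 and 45213 bp, lay on H3K18ac regions that were also in C4-2BER only, and had 3.15 and 2.67. The 1 region in C4-2B only, at 22414 bp, was stronger, at 3.72. Of the 6 H3K27ac regions of PAX1, 2 were increased (33.3%, against 30.5% of all H3K27ac regions) and 2 decreased (33.3%, against 22.7%). The long noncoding gene LINC01726 overlaps the upstream regions, and the region at the PAX1 TSS also overlaps its promoter window.

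The strongest H3K27ac of the PAX3 and PAX4 windows lay at other genes. Near PAX3, the shared region at −21640 to −19100 bp lay at the promoters of CT75 and ENSG00000288658, with 6.15 in C4-2BER against 3.77 in C4-2B, a log2 ratio of 0.71. The other PAX3 region was a peak of 276 bp in C4-2BER only, at 2.88. Near PAX4, 3 strong regions lay at the promoters of GCC1 (12.5 in C4-2BER against 21.6 in C4-2B), of ARF5 and FSCN3 (17.1 and 24.6) and of SND1 and SND1-DT (15.7 and 22.1). All were lower in C4-2BER, and after rescaling their log2 ratios were −0.35, −0.05 and −0.03. H3K27ac peaks covered 9.07% of the PAX4 window in C4-2BER and 9.58% of it in C4-2B, none of them over PAX4 itself. The fourth shared region, in SND1 at −48332 to −45341 bp, had 4.29 and 4.53, and the 2 regions in C4-2B only had 2.20 and, at the promoter of FSCN3, 2.37.

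PAX8 had the most H3K27ac regions, 17. Of these, 7 were called in C4-2BER alone and so increased (41.2%, against 30.5% of all H3K27ac regions). Another 2 were called in C4-2B alone and so decreased (11.8%, against 22.7%). The 7 had low fold enrichments, the highest being 3.24 at −10140 to −9599 bp, the one of the 7 whose H3K18ac was also in C4-2BER only. None of the 8 shared regions was higher in C4-2BER. The strongest that lay wholly in the window was in PSD4, the neighbour downstream, with 5.49 in C4-2BER against 7.05 in C4-2B. The shared region with the lowest ratio, 96235 to 98581 bp from the TSS, had 2.33 and 3.43, and that with the highest, at 92800 to 94412 bp, had 2.27 and 2.34. A wider region of PSD4, which ran past the edge of the window, had 10.9 and 14.1, and the region farthest upstream lay at the promoter of LINC02966, with 4.13 and 4.99. More of the PAX8 window was covered in C4-2BER, at 12.9% against 4.84%. That coverage includes the peaks in PSD4, among them some of those called in C4-2BER alone.

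PAX6 (chr11:31784779-31817961, minus strand) had almost no H3K27ac. Its 1 peak, in C4-2BER, covered 0.284% of the window, and C4-2B had no peak. Over all protein-coding genes the median window was covered to 7.89% in C4-2BER against 6.16% in C4-2B. H3K18ac nevertheless lay over the PAX6 promoters in both cell lines, in a region of 6145 bp with 2.70 in C4-2BER against 3.33 in C4-2B. Of the 7 H3K18ac regions in the window, 4 were shared by the cell lines, this one included, and 3 were in C4-2B only. Those 3 were thus decreased (42.9%, against 23.5% of all H3K18ac regions), and none was increased (against 26.2%). H3K18ac covered 7.34% of the window in C4-2BER against 14.1% in C4-2B. The printed bases of the most upstream promoter, which hold the paired domain core, lay under an H3K18ac peak in C4-2B alone, at 2.41. That peak was part of a promoter region shared by the cell lines, with 2.16 in C4-2BER, so H3K18ac was not lost there.

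**Figure D5:**
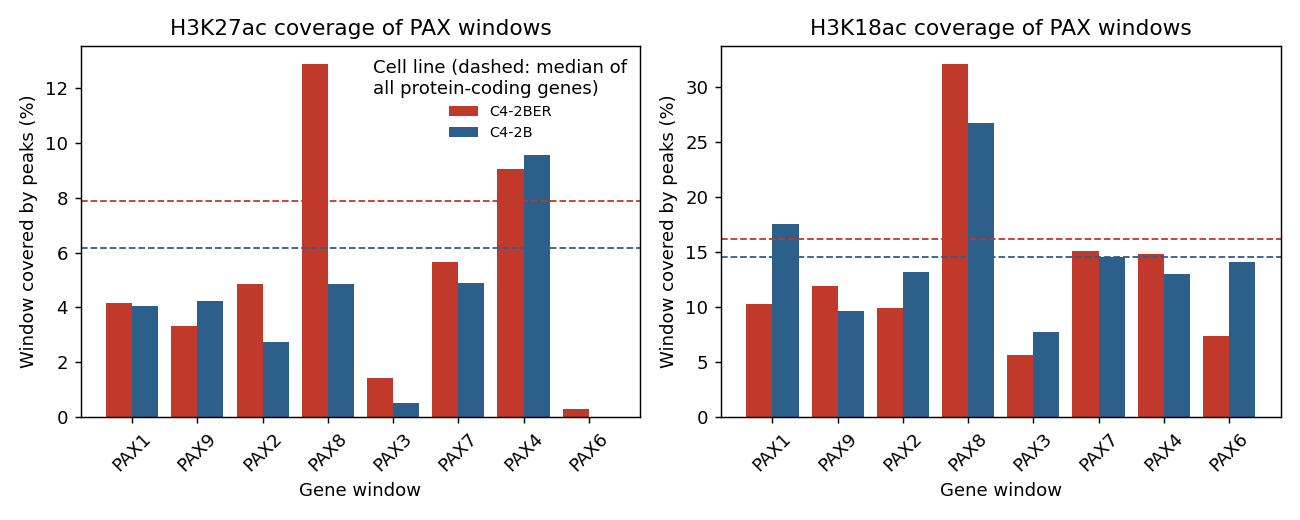
Percent of each gene window (gene body and 50 kb to each side) covered by peaks of H3K27ac (left) and H3K18ac (right), with the median of all protein-coding genes dashed. In C4-2BER H3K27ac covered more than the median only at PAX8 and PAX4, and at PAX6 it covered 0.284%.

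In H3K18ac the strongest region of PAX1, PAX6 and PAX9 was the one at the promoter, and in the other windows it lay elsewhere. For PAX2 it was, by the C4-2BER value, the region at −35901 to −34575 bp (6.85 in C4-2BER against 5.37 in C4-2B). In C4-2B the exonic region near the 3′ end of PAX2 was stronger, at 6.45. It was that of CT75 for PAX3 (5.82 and 5.40), that of ARF5, FSCN3 and GCC1 for PAX4 (8.79 and 10.2) and that at −25852 to −22646 bp for PAX7 (5.71 and 5.45). For PAX8 it was a region of PSD4 (5.05 and 5.76) that ran past the edge of the window. The strongest PAX8 region wholly in the window, also in PSD4, had 4.66 and 4.86. The lowest ratio among the shared regions was at GCC1 in the PAX4 window, at 5.42 against 8.56, a log2 ratio of −0.66. The highest was the PAX2 region at −35901 to −34575 bp, at 0.35, followed by an intronic PAX8 region with 3.58 and 2.85, at 0.33.

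Of the H3K18ac regions in 1 cell line only, the strongest of PAX2 (2.86, intronic), PAX4 (2.71, upstream), PAX7 (2.69, intronic), PAX8 (2.82, intronic) and PAX9 (4.23) were in C4-2BER. Those of PAX1 (3.12, downstream), PAX3 (2.99, intronic) and PAX6 (2.58, upstream) were in C4-2B. At PAX3, the neighbour CCDC140 shares the promoter region, and an H3K18ac region at −3569 to −2410 bp in its promoter was in C4-2B only, at 2.64.

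The marks were compared peak by peak. In C4-2BER all 43 H3K27ac peaks of the 8 windows overlapped an H3K18ac peak, against 92.5% in the whole list, and in C4-2B 31 of 35 did (88.6%, against 93.8%). Conversely, 39 of 104 H3K18ac peaks overlapped H3K27ac in C4-2BER (37.5%, against 33.4%) and 29 of 121 in C4-2B (24.0%, against 30.8%). Of the 17 increased H3K27ac regions, 7 lay on an H3K18ac region that was increased as well and 10 on unchanged H3K18ac only. Of the 9 decreased, 1 lay on a decreased H3K18ac region, 6 on unchanged H3K18ac only, 1 on an increased one and 1 on none. The same shares over all increased and decreased H3K27ac regions were not computed, so these counts cannot be set against them.

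The peaks in 1 cell line only were weak in both directions. Those of H3K27ac had fold enrichments of 2.19 to 3.24 in C4-2BER and 2.20 to 3.72 in C4-2B, with medians of 2.54 and 2.43. Those of H3K18ac had 1.91 to 4.23 and 2.11 to 3.12. Base composition moved with the calls. The median GC content was 52.8% in the increased and 60.0% in the decreased H3K27ac regions of the PAX windows, and 50.5% and 58.2% for H3K18ac, while over all regions it was 49.6% and 55.2%, and 49.0% and 54.9%. Its part in the result was not tested.

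Genes known to work with PAX factors were read at their promoters. In the network that acts with PAX factors in eye, ear and kidney, SIX3 had promoter H3K27ac in C4-2BER only, at 3.74, and SIX6 in C4-2B only, at 2.35. SIX4 had 15.6 in C4-2BER against 29.8 in C4-2B, a log2 ratio of −0.93 where the median over all promoters was −0.50. The 6 co-factors, PAXIP1, PAXBP1 and the corepressors TLE1 to TLE4, had both marks in both cell lines and no promoter was increased or decreased. PAXIP1, a partner of PAX factors in histone methylation, had H3K27ac of 22.9 in C4-2BER against 34.9 in C4-2B. Of 18 partner and target genes, 13 had an H3K27ac promoter peak in each cell line, where 74.2% and 73.8% of all genes did. An H3K18ac peak was at 16 in C4-2BER and at 18 in C4-2B, where 85.2% and 87.2% of all genes had one. MYF5, the myogenic factor controlled by PAX3 and PAX7, was the one gene decreased in both marks, with H3K27ac of 2.61 in C4-2B only and H3K18ac of 2.23 in C4-2BER against 5.48 in C4-2B. PAX5 itself had 14 H3K27ac regions in its window, 4 increased (28.6%, against 30.5% of all regions) and 6 decreased (42.9%, against 22.7%), and no H3K27ac promoter peak in C4-2BER against 6.35 in C4-2B. The 6.35 was a peak of 406 bp at 6059 to 6464 bp from the canonical TSS, and at the canonical TSS C4-2B had 3.33. Its H3K18ac promoter value was 3.20 in C4-2BER against 4.19 in C4-2B. Just upstream of the promoter window, at −3611 to −2357 bp, H3K27ac was called in both cell lines, at 2.59 in C4-2BER against 3.64 in C4-2B. The paper described enhanced histone acetylation near the PAX5 promoter in C4-2BER, from normalized signal tracks. Peak fold enrichment in a promoter window is another measure, so these values are not directly comparable with that statement.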

How the data were processed

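H3K27ac and H3K18ac ChIP-seq was made in the C4-2B and C4-2BER lines, each with 2 libraries of either mark and 1 input. The authors aligned the reads with bowtie2 (GRCh38), removed blacklisted regions, poorly aligned reads and duplicates, merged replicates and called broad peaks with macs2. The submitters' processing notes name bcl2fastq 2.17, Trimmomatic 0.33 and Bowtie2 2.2.3. The deposited lists give each peak a score, a fold enrichment (the ratio of ChIP to local background), a −log10 p-value, which was not used, and a −log10 q-value. The authors' fold enrichment and −log10 q-value were used. Fold enrichment is scaled to each list's own background, so ratios between lists also carry differences in background.

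Peaks were assigned to genes of GENCODE release 44 with Python 3.11.15, numpy 2.4.6 and pandas 2.3.3. Overlapping peaks of the cell lines formed a region, whose value was the mean fold enrichment weighted by peak length. Rescaled ratios used a robust line through all shared regions (statsmodels 0.14.6). No test was possible, because each list pools its replicates and gives 1 value, and no depth is given. Merging, calls and promoter values were tested on simulated lists. The members and gene lists were chosen with earlier results of these data known. All 8 members are named. For each, the rule took the strongest region of each mark, the strongest in 1 cell line only, the shared regions with the largest ratio in each direction, and neighbours whose promoters overlap a region. For H3K18ac the largest ratios are given over the 8 windows together, and neighbours only where a region is described. Of the gene lists, genes increased or decreased in both marks are named, or otherwise those with the largest changes. The canonical promoter of PAX9, which overlaps an annotated exon, is not printed. The ATAC-seq and RNA-seq of the study were not analysed here. Counts over the luminal marker and PAX network lists are not reported here.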

Additional observations from a re-analysis of the deposited data

How the results depend on the processing

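No paired analysis was possible because each list pools its replicates, and for the same reason no replicate could be left out. Counts depended most on weak peaks. With peaks of a fold enrichment of at least 4, increased and decreased regions numbered 4 and 4 of 20 for H3K27ac, against 1 and 4 of 20 for H3K18ac. Genes with a promoter peak then numbered 2 in C4-2BER for H3K27ac and 2 in each cell line for H3K18ac. With a −log10 q of at least 5, the counts were 4 and 3 of 25 for H3K27ac and 6 and 3 of 30 for H3K18ac. Increased H3K18ac regions then outnumbered decreased ones, the reverse of the main count. Shares over all regions were not computed at these thresholds, so that turn cannot be set against them. At that q-value 2 genes had an H3K27ac promoter peak in C4-2BER, while 4 had an H3K18ac one in C4-2BER and 3 had one in C4-2B. With 10 kb to each side, 5 of 27 H3K27ac regions were decreased, and 17 of 89 H3K18ac regions were increased and 26 decreased. With 100 kb to each side the counts were 27 and 15 of 76 for H3K27ac, against 53 and 62 of 215 for H3K18ac. The other alternatives, which were a stricter overlap, a ratio of 1.5, peaks in 1 cell line only, rescaling, the highest fold of a region, equal numbers of peaks, other promoter windows and leaving out promoters of other genes, left each count within 1.5 times. Of 30 recomputed promoter ratios, 29 kept their call. The exception was PAX1 H3K27ac after rescaling, at a log2 of −0.78.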
